A study of Mus musculus with 15 samples.

Results

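The collagen genes of the mouse were followed here from normal liver through MYC-driven liver tumors to early tumor regression. Members were all genes whose symbol in the deposited normalized matrix is Col, a type number, the letter a and a chain number. This gave 40 genes, read by 81 probes, of 21523 genes with a symbol on the array. Of the 40, 11 are fibrillar collagens, 6 are chains of type IV, the basement membrane network, and 23 belong to other classes. The filter asked that a probe stand well above background on 3 or more of the 15 arrays, and 39 members passed, as did 19355 genes in all. Col28a1, a minor collagen with 1 probe, did not pass, since that probe was well above background on 0 of the 15 arrays.

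RNA came from frozen FVB/N mouse liver or liver tumor tissue, with 1 Cy3-labelled sample per Agilent array. The regression group (n = 4) is liver tumor tissue of LAP-tTA x TRE-MYC mice that were without doxycycline for 8 to 9 weeks and then ate it again for 72 hours. The tumor group (n = 4) is liver tumor of LAP-tTA x TRE-MYC mice without doxycycline for 8 to 9 weeks. The pre-tumor group (n = 4) is tumor-free liver of LAP-tTA x TRE-MYC mice without doxycycline for 4 to 5 weeks. The control group (n = 3) is liver of mice that carry LAP-tTA alone. In all groups doxycycline chow (200 mg/kg) was eaten until an age over 8 weeks, and the LAP promoter drives the activator tTA in liver cells, where doxycycline shuts it off. The cell types in which the MYC transgene was active were not measured here. No time without doxycycline is given for the controls. Whether the arrays of a group come from separate animals is not stated, so p-values measure only the spread between these samples, which may be technical.

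Collagens are triple helices of 3 alpha chains, each from its own gene, that are modified and folded in the endoplasmic reticulum and assembled outside the cell. Fibrillar collagens form the cables of scar and stroma, type IV forms the sheet-like network of basement membranes, and the other classes decorate fibrils, link them to cells or span the plasma membrane. In the liver, hepatic stellate cells and portal fibroblasts are the main source of fibrillar collagen, and the deposit of types I and III is the substance of liver fibrosis.

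Levels are given on the log2 scale relative to the 75th percentile of the same array, so that a difference of 1 is a doubling of signal. They are compared between groups and never between genes, since probes differ in brightness. Between 46.4% (tumor 3) and 90.8% (pre-tumor 4) of spots were well above background. The correlation between arrays of a group was 0.837 to 0.97 across the genes that passed, each read by its brightest passing probe. The number of arrays limits the precision. As a check of the labels, the Myc probe A_52_P108346 lay between -0.82 and -0.09 on the regression arrays, 3.66 and 4.82 on the tumor arrays, 0.08 and 2.50 on the pre-tumor arrays, and -1.62 and -0.23 on the control arrays. The array holds 2 further Myc probes, which did not follow this order. Probe A_51_P102096 lay between -2.28 and -0.98 on the regression arrays, -3.70 and -2.32 on the tumor arrays, -2.68 and -1.13 on the pre-tumor arrays, and -2.29 and -1.56 on the control arrays, and was well above background on 1 of 4 tumor arrays. Probe A_52_P278549 lay between 0.55 and 2.56 on the regression arrays, 0.44 and 1.23 on the tumor arrays, 0.60 and 2.33 on the pre-tumor arrays, and 1.63 and 2.17 on the control arrays. Both were thus lower on every tumor array than on every control array, and which of the 3 probes reads the transgene is not given in the sources used here. The labelled tissue was also checked. The hepatocyte markers Alb, Ttr and Apoa1 were well above background on all 15 arrays.

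Of the collagen genes, 12 were higher in regressing tumors than in tumors, and none was called lower. A gene rose or fell where limma's adjusted p was under 0.05. In the comparison of regression with tumor, 12 of the 39 members rose and 0 fell, against 8.49% of all genes that rose and 8.21% that fell (16.7% either way). The share of members that rose was thus 30.8%. The arrays of the 2 groups did not overlap for 11 members, against 23.7% of all genes. Regression against control gave 11 members higher and 0 lower, against 5.15% of all genes higher and 3.18% lower (8.33% either way). Those groups did not overlap for 18 members, against 25.1% of all genes. Tumor against control gave 5 members higher and 0 lower, against 9.35% and 7% of all genes (16.3% either way), and no overlap for 11 members, against 25.5% of all genes. Tumor against pre-tumor gave 5 members higher and 1 lower, against 9.94% and 9.21% of all genes (19.1% either way), and no overlap for 7 members, against 21.1% of all genes. The comparisons share tumor and control arrays, so their counts are not independent of each other. In bulk tissue, fewer cells of a type and less RNA per cell cannot be told apart.

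The members moved unequally. The median log2 difference over the 39 members was 0.33 for regression against tumor, beside -0.11 over all genes. It was -0.23 for tumor against control, beside -0.18 over all genes. Only 15 of the 39 members had a positive difference between tumor and control, and the 5 that were called are all fibrillar. Of the fibrillar members, 5 of 11 were higher in tumor than in control and 5 of 11 higher in regression than in tumor. Of the 6 type IV chains, 0 were called in tumor against control (smallest adjusted p = 0.0954 in limma) and 1 was higher in regression than in tumor. Of the 22 passing members of other classes, 0 were called in tumor against control (smallest adjusted p = 0.0519) and 6 were higher in regression than in tumor. Over all 39 members, 14 had an unadjusted p under 0.05 in tumor against control.

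**Figure D1:**
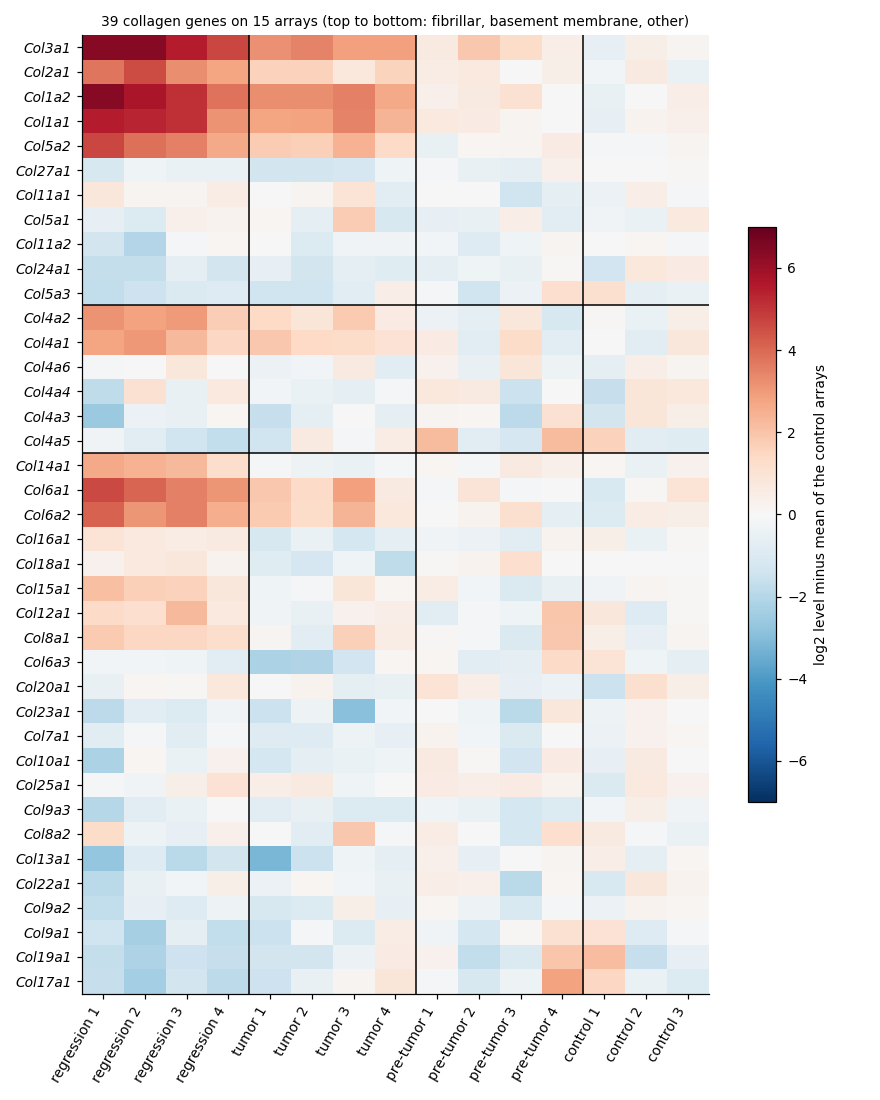
Level of each of the 39 collagen genes (rows, grouped as fibrillar, basement membrane and other) on each of the 15 arrays (columns), as log2 level minus the mean of the control arrays. The upper fibrillar rows, the Col4a1 and Col4a2 rows and the upper rows of the other classes are red on the regression arrays, while most remaining rows are pale or blue there.

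Types I and III are the main collagens of stroma and scar. Col1a1 encodes the chain present in 2 copies in each type I molecule, and its probe lies at chr11:94766828-94766887 (mm9, plus strand). Its level was 5.38, 5.24, 5.01 and 3.02 on the regression arrays, 2.64, 2.73, 3.34 and 2.29 on the tumor arrays, 0.58, 0.46, 0.09 and -0.09 on the pre-tumor arrays, and -0.70, 0.14 and 0.23 on the control arrays. All 8 regression and tumor arrays were above all 7 others, and regression 4, the lowest of its group, lay below tumor 3. Col1a1 was higher in tumor than in control by 2.86 ± 0.50 on the log2 scale (SE, adjusted p = 0.0008) and higher in regression than in tumor by 1.91 ± 0.46 (adjusted p = 0.00947).

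Col1a2, the second chain of type I (probe at chr6:4490619-4490678, mm9, plus strand), had levels of 6.82, 6.18, 5.59 and 4.28 on the regression arrays. Its levels were 3.72, 3.75, 3.98 and 3.12 on the tumor arrays, 0.84, 1.09, 1.56 and 0.48 on the pre-tumor arrays, and -0.02, 0.48 and 0.97 on the control arrays. The regression arrays did not overlap the tumor arrays, and neither group overlapped pre-tumor or control. The rise in regression over tumor was 4.22-fold (log2 2.08 ± 0.46, adjusted p = 0.00553), and that in tumor over control 8.99-fold (log2 3.17 ± 0.50, adjusted p = 0.000334).

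Col3a1, the chain of the type III homotrimer that is woven into type I fibrils, had its probe at chr1:45293290-45293349 (mm9, plus strand). Its levels were 6.84, 6.83, 5.95 and 5.12 on the regression arrays, 3.67, 3.96, 3.34 and 3.32 on the tumor arrays, 1.09, 2.36, 1.74 and 0.93 on the pre-tumor arrays, and -0.10, 0.86 and 0.63 on the control arrays. No pair of groups overlapped. Col3a1 was 6.12-fold higher in regression than in tumor (log2 2.61 ± 0.43, adjusted p = 0.000668) and 8.64-fold higher in tumor than in control (log2 3.11 ± 0.46, adjusted p = 0.000198). Its level in regression was 52.9-fold that in control (adjusted p = 2.83e-06), the smallest adjusted p of any member in the 5 comparisons. The difference between pre-tumor and control, 1.07 ± 0.46, did not pass (adjusted p = 0.9999), although these groups did not overlap.

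The promoters of these leading stromal genes are shown because the genes move together. RefSeq (GRCm38.p6) gave a window of 300 bases for Col1a2 at chr6:4505368-4505667 (plus strand) and for Col3a1 at chr1:45311288-45311587 (plus strand), and Col1a1 had no entry in the table used. Each runs from 250 bases before the annotated start to 50 after it. Capitals mark 3 motifs on either strand. The first, CCAAT, is the box bound by the factor NF-Y. The letters TATAAA are a form of the TATA box. The letters GGGCGG are the core of the GC box, which Sp1 binds.
Col1a2: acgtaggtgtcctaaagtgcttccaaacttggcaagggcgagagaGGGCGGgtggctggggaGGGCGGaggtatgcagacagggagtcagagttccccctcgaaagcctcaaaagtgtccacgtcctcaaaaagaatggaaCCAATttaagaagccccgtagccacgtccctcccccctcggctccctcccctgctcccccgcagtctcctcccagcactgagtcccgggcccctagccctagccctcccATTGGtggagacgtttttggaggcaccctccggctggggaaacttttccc
Col3a1: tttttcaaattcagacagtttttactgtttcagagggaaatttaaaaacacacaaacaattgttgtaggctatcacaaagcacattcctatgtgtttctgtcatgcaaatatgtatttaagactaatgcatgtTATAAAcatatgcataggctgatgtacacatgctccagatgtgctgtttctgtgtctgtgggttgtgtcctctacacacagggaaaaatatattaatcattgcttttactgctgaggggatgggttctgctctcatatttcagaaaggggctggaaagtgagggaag
In the Col1a2 window, CCAAT began 109 bases before the start and GGGCGG began 205 and 188 bases before it, while ATTGG, its other strand, stood at the start itself. In the Col3a1 window the only one of these motifs was TATAAA, 117 bases before the start. The 32 members with an entry have 35 windows, and 32851 windows have this length in all. Any window listed for a member on a chromosome that holds no collagen probe was left out of the 35 but kept in the total. The CCAAT box was in 12 of the 35 and in 37.4% of all. The TATA box was in 5 of the 35 and in 13.6% of all. The GC box was in 20 of the 35 and in 35.7% of all. CACGTG, the E-box that MYC binds with MAX, was in 0 of the 35 collagen windows and in 7.15% of all windows. CAGACA, a Smad-binding motif, was in 9 of the 35 and in 21% of all. All motifs were searched on both strands. These are matches of letters, not sites of binding.

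Col5a2, a chain of type V, which sits inside type I fibrils and sets their width, followed the same groups. Its only probe (chr1:45321322-45321381, mm9, minus strand) read 2.11, 1.27, 0.96 and 0.06 on the regression arrays, -0.80, -0.94, -0.16 and -1.27 on the tumor arrays, -3.09, -2.44, -2.40 and -1.997 on the pre-tumor arrays, and -2.71, -2.65 and -2.40 on the control arrays. Regression lay above tumor and tumor above both other groups without overlap. Col5a2 was higher in regression than in tumor by 1.89 ± 0.41 (adjusted p = 0.00429) and higher in tumor than in control by 1.79 ± 0.44 (adjusted p = 0.00939). With normexp background correction and quantile normalization the call in tumor against control was lost (adjusted p = 0.209). Col5a2 and Col3a1 are neighbouring genes on chromosome 1.

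The partner chains of Col5a2 were not called through the probes that represent them. Col5a1, the chain needed for every type V molecule, had levels from 0.50 to 1.79 on the regression arrays, 0.33 to 3.21 on the tumor arrays, 0.64 to 1.89 on the pre-tumor arrays and 0.96 to 2.14 on the control arrays, and the groups overlapped. Its difference between regression and tumor was -0.27 ± 0.55 (adjusted p = 0.866). Col5a3, another type V chain, had -0.49 ± 0.55 for the same comparison (adjusted p = 0.694), with regression arrays between -2.97 and -2.13 and tumor arrays between -2.63 and -0.76.

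Col2a1, the chain of the type II homotrimer of cartilage, was called through its brighter probe (chr15:97804088-97804147, mm9, minus strand). That probe read 4.22, 5.02, 3.73 and 3.24 on the regression arrays, 2.10, 2.11, 1.20 and 2.03 on the tumor arrays, 1.01, 1.14, 0.45 and 0.87 on the pre-tumor arrays, and 0.30, 1.096 and 0.03 on the control arrays. Regression and tumor did not overlap, nor did tumor and the 2 remaining groups. The difference was 2.19 ± 0.39 between regression and tumor (adjusted p = 0.00127) and 1.39 ± 0.43 between tumor and control (adjusted p = 0.0359). A second Col2a1 probe shares part of the same stretch (chr15:97804108-97804167) and gave -0.09 ± 0.60 between regression and tumor (adjusted p = 0.963 over all probes). The Col2a1 calls therefore rest on 1 of its 2 passing probes, and that in tumor against control was lost with the slide as a block (adjusted p = 0.101) and with normexp background correction and quantile normalization (0.102).

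The other 6 fibrillar genes were not called in any of the 5 comparisons. They are Col5a1 and Col5a3, described above, Col11a1 and Col11a2, chains of the type XI collagen of cartilage fibrils, Col24a1 and Col27a1. The differences of Col11a1, Col11a2, Col24a1 and Col27a1 between regression and tumor were 0.33, -0.46, -0.49 and 0.43, with adjusted p from 0.509 to 0.734. Between tumor and control the nearest to a call was Col27a1, a fibrillar collagen of cartilage, at -1.02 (adjusted p = 0.0672).

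**Figure D2:**
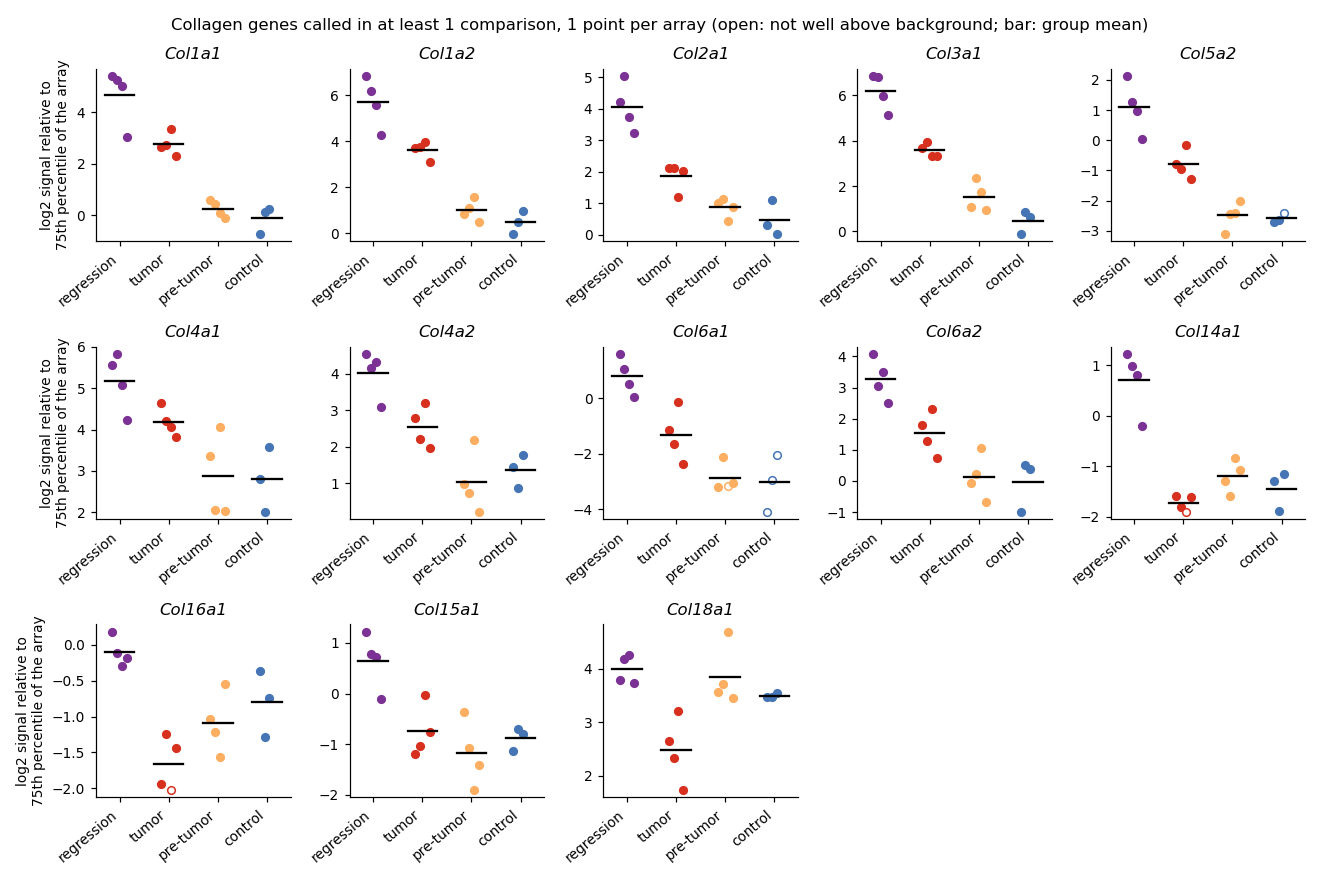
Levels (log2 signal relative to the 75th percentile of the array) of the 13 collagen genes called in at least 1 comparison, with 1 point per array, the mean of each group as a bar, and open points where the probe was not well above background. For Col1a2, Col3a1 and Col5a2 the regression arrays lie above the tumor arrays and the tumor arrays above the pre-tumor and control arrays, while for Col14a1, Col16a1 and Col18a1 the tumor arrays lie lowest on average.

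Among the type IV chains of the basement membrane, Col4a1 and Col4a2 were called in at least 1 comparison and the other 4 in none. These 2 are the chains of the common network that lies under endothelium and epithelium. Col4a2 (probe at chr8:11448152-11448211, mm9, plus strand) read 4.54, 4.17, 4.33 and 3.11 on the regression arrays, 2.78, 2.20, 3.21 and 1.97 on the tumor arrays, 0.97, 0.73, 2.18 and 0.22 on the pre-tumor arrays, and 1.45, 0.88 and 1.78 on the control arrays. Regression lay above tumor except for regression 4, which was below tumor 3. Col4a2 was higher in regression than in tumor by 1.49 ± 0.45 (adjusted p = 0.0311), higher in tumor than in pre-tumor by 1.51 ± 0.45 (adjusted p = 0.0258), and higher in regression than in control by 2.67 ± 0.49 (adjusted p = 0.00217). The call between tumor and pre-tumor was lost with the slide as a block (adjusted p = 0.0655) and in the limma fit of these 2 groups alone (0.0506). Its difference between tumor and control, 1.17 ± 0.49, did not pass (adjusted p = 0.12).

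Col4a1 (probe at chr8:11198981-11199040, mm9, minus strand) read 5.57, 5.82, 5.08 and 4.23 on the regression arrays, 4.65, 4.20, 4.07 and 3.81 on the tumor arrays, 3.35, 2.07, 4.07 and 2.03 on the pre-tumor arrays, and 2.80, 2.02 and 3.57 on the control arrays. Regression overlapped tumor through regression 4 alone, and did not overlap control. Only the difference between regression and control passed (2.38 ± 0.54, adjusted p = 0.0106). That between regression and tumor was 0.99 ± 0.50, with a 95% interval from -0.07 to 2.05 (adjusted p = 0.231), so a difference between Col4a1 and Col4a2 in this comparison was not shown.

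Col4a1 and Col4a2 lie side by side on chromosome 8 on opposite strands, and their RefSeq windows (GRCm38.p6) are shown because they overlap. The Col4a1 window is chr8:11312777-11313076 on the minus strand and the Col4a2 window chr8:11312555-11312854 on the plus strand. They share 78 bases. The annotated first base is 11312826 for Col4a1 and 11312805 for Col4a2, with 20 bases between them. Given the strands, the annotated genes overlap there and no gap separates them. Capitals mark the CCAAT box and the GC box (GGGCGG) on either strand.
Col4a1: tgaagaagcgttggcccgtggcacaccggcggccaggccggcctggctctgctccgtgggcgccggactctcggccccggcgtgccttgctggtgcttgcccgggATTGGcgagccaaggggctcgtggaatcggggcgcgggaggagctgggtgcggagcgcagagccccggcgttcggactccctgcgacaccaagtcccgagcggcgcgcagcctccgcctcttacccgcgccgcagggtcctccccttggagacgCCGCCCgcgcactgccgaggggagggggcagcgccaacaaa
Col4a2: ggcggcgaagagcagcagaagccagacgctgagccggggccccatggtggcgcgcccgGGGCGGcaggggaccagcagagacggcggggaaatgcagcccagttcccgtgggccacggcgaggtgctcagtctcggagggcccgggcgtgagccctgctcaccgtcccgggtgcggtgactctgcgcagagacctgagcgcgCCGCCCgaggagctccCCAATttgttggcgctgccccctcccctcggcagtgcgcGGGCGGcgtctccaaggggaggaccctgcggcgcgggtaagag
In the Col4a2 window CCAAT began 32 bases before the start, and in the Col4a1 window ATTGG, the same motif on the other strand, began 145 bases before it. The Col4a2 window held GGGCGG or its other strand, CCGCCC, at 3 places, and the Col4a1 window at 1. That 1 lies in the shared bases and is the same site as 1 of the 3, read on the other strand. 
The remaining type IV chains were not called in any comparison. Col4a3, Col4a4 and Col4a5 build the network of the kidney filter and Col4a6 that of smooth muscle and some epithelia. Between regression and tumor the difference was -0.13 ± 0.68 for Col4a3, 0.20 ± 0.67 for Col4a4 and 0.37 ± 0.41 for Col4a6, with adjusted p from 0.692 to 0.958 in limma. Col4a5 was well above background on 0 of 4 regression arrays and 1 of 4 tumor arrays, with measured means of -4.78 and -3.83 (adjusted p = 0.552), and no fold is given for it.

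Type VI, the beaded filament that surrounds cells and links them to fibrils, rose in regression through 2 of its 3 measured chains. Col6a1 (1 probe, chr10:76152870-76152929, mm9, minus strand) read 1.57, 1.03, 0.49 and 0.05 on the regression arrays, -1.15, -1.66, -0.16 and -2.37 on the tumor arrays, -3.18, -2.10, -3.15 and -3.04 on the pre-tumor arrays, and -4.08, -2.95 and -2.05 on the control arrays. Every regression array was above every tumor array. The difference was 2.12 ± 0.52 (adjusted p = 0.01). Col6a1 was not well above background on any control array, so its level in regression was at least 10.9-fold that in control (adjusted p = 0.000408), with measured means of 0.78 and -3.03. In tumor against control the arrays overlapped, with tumor 4 (-2.37) below control 3 (-2.05), and the limma test did not pass (adjusted p = 0.0519). The bound from the group means was 2.5-fold there, which takes no account of the spread between arrays.

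Col6a2, whose gene neighbours Col6a1 on chromosome 10, read 4.07, 3.04, 3.49 and 2.50 on the regression arrays, 1.79, 1.27, 2.33 and 0.73 on the tumor arrays, -0.07, 0.22, 1.07 and -0.67 on the pre-tumor arrays, and -0.98, 0.50 and 0.37 on the control arrays. Regression stood above all other groups. It was higher in regression than in tumor by 1.75 ± 0.48 (adjusted p = 0.0203) and than in control by 3.31 ± 0.52 (adjusted p = 0.000709). In tumor against control the difference of 1.56 ± 0.52 missed the threshold (adjusted p = 0.0535). Col6a3, the longest of the 3 chains, was not called through the probe that represents it. It read -1.41, -1.42, -1.53 and -1.96 on the regression arrays, against -3.44, -3.35, -2.58 and -1.09 on the tumor arrays, a difference of 1.03 ± 0.55 (adjusted p = 0.269). Tumor 4 was above all regression arrays, and the groups overlapped.

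A pair of FACIT collagens, which bind along the surface of fibrils, rose in regression without having been called in tumors. Col14a1 (probe at chr15:55350660-55350719, mm9, plus strand) read 1.21, 0.98, 0.81 and -0.21 on the regression arrays, -1.59, -1.81, -1.90 and -1.61 on the tumor arrays, -1.29, -1.59, -0.84 and -1.08 on the pre-tumor arrays, and -1.30, -1.90 and -1.15 on the control arrays. The regression arrays were above all 11 others. Col14a1 was 5.37-fold higher in regression than in tumor (log2 2.42 ± 0.34, adjusted p = 0.000189) and 4.43-fold higher than in control (log2 2.15 ± 0.36, adjusted p = 0.00124). Between tumor and control the difference was -0.28 ± 0.36 (adjusted p = 0.671).

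Col16a1 (probe at chr4:129601405-129601464, mm9, plus strand) read 0.17, -0.11, -0.29 and -0.19 on the regression arrays, -1.94, -1.25, -2.02 and -1.43 on the tumor arrays, -1.04, -1.21, -1.56 and -0.54 on the pre-tumor arrays, and -0.37, -1.28 and -0.75 on the control arrays. Regression lay above the 3 other groups, narrowly so above control. The difference was 1.56 ± 0.32 between regression and tumor (adjusted p = 0.00311) and 0.70 ± 0.34 between regression and control (adjusted p = 0.226).

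The 2 multiplexins, collagens of basement membrane zones whose cut ends include the vessel inhibitor endostatin, also rose in regression. Col18a1, the precursor of endostatin and a collagen that hepatocytes make, was the only member called lower in the main analysis. It read 3.78, 4.18, 4.26 and 3.74 on the regression arrays, 2.65, 2.34, 3.21 and 1.74 on the tumor arrays, 3.57, 3.72, 4.68 and 3.45 on the pre-tumor arrays, and 3.47, 3.48 and 3.54 on the control arrays. The tumor arrays lay below every array of the other groups. Col18a1 was lower in tumor than in pre-tumor by 2.58-fold (log2 -1.37 ± 0.36, adjusted p = 0.0116) and higher in regression than in tumor by 1.51 ± 0.36 (adjusted p = 0.00797). With median centring of the arrays the call against pre-tumor was lost (adjusted p = 0.131). Tumor against control (log2 -1.01 ± 0.38) did not pass (adjusted p = 0.0904), nor did regression against control (0.50 ± 0.38, adjusted p = 0.455).

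Col15a1, which lies in basement membranes of vessels and muscle, read 1.21, 0.78, 0.72 and -0.10 on the regression arrays, -1.18, -1.03, -0.02 and -0.75 on the tumor arrays, -0.35, -1.08, -1.89 and -1.40 on the pre-tumor arrays, and -1.12, -0.70 and -0.80 on the control arrays. Regression overlapped tumor only where regression 4 fell just below tumor 3. The difference was 1.40 ± 0.39 between regression and tumor (adjusted p = 0.0203) and 1.53 ± 0.42 between regression and control (adjusted p = 0.0336). With the slide as a block neither difference passed (adjusted p = 0.0563 and 0.119).

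The remaining 15 passing members of other classes were not called in any comparison. For 12 of them the difference between regression and tumor ran from -0.99 for Col9a1 (adjusted p = 0.32), a chain of the FACIT type IX of cartilage, to 1.09 for Col8a1 (adjusted p = 0.245), a short-chain collagen of vessel walls. Col8a1 was well above background on 4 of 4 regression and 2 of 4 tumor arrays. The other 3 were dim throughout 1 of the groups, and no fold is given for them. Col12a1, a FACIT of dense connective tissue, was well above background on 3 of 4 regression arrays and 0 of 4 tumor arrays, with measured means of -3.26 and -4.64 (adjusted p = 0.106). Col17a1, a transmembrane collagen of the hemidesmosome, had 0 of 4 regression and 1 of 4 tumor arrays well above background, with means of -5.18 and -3.62 (adjusted p = 0.203). Col19a1, another FACIT, had the same numbers of arrays, with means of -5.42 and -4.29 (adjusted p = 0.447). Of all 40 members, 23 were well above background on all 15 arrays.

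**Figure D3:**
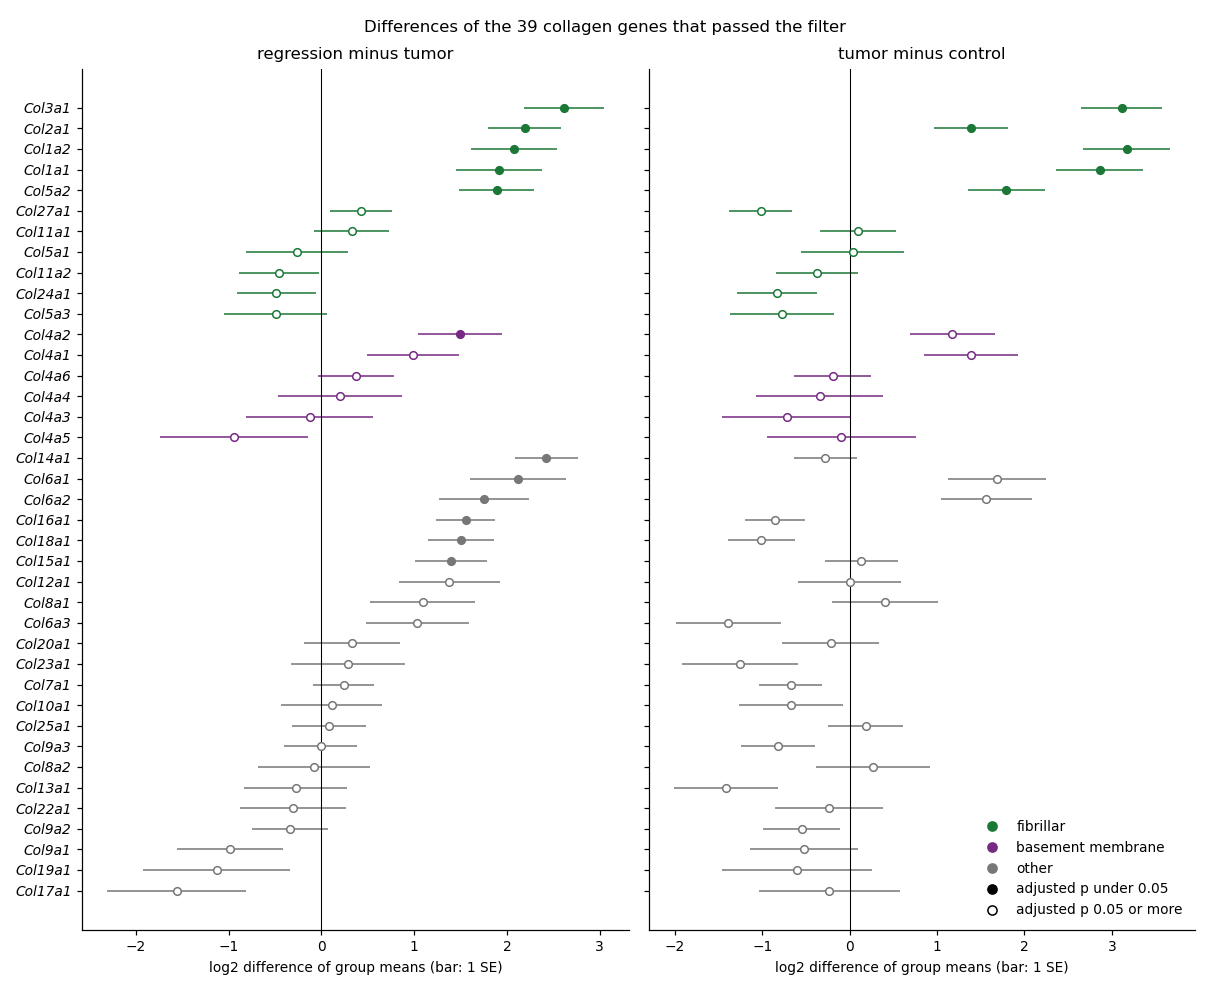
Log2 difference of group means, regression minus tumor (left) and tumor minus control (right), for the 39 collagen genes that passed the filter, with bars of 1 SE, colours by class and filled points where the adjusted p was under 0.05. On the left 12 points are filled, all to the right of 0. On the right 5 are filled, all fibrillar.

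The regression arrays differed among themselves. Regression 4 was the lowest of its group for 11 of the 12 members that rose over tumor. Without it 12 members still rose in regression over tumor. Without tumor 3, the array with the fewest spots well above background, the count was also 12. Each slide held at most 1 array of a group, and regression 4 shared slide 2 with tumor 3. Within slides the difference between regression and tumor was positive on 4 of 4 slides for 9 of the 12 members. It was positive on 3 of 4 for Col1a1, where the lowest value was -0.32, for Col4a2 (-0.11) and for Col15a1 (-0.08). With the slide as a block 9 members rose, and the adjusted p was 0.0563 for Col15a1, 0.0769 for Col4a2 and 0.0515 for Col6a2. When the 2 passing Col1a2 probes were averaged, the Col1a2 difference was 0.32 (adjusted p = 0.819).

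Probes of the same collagen gene did not always move together. All 3 Col1a1 probes gave positive differences between regression and tumor, 1.91, 1.78 and 1.84, although after adjustment over 33957 probes only the first passed (adjusted p = 0.0115, 0.0605 and 0.0666). In tumor against control the second of them, A_52_P525107, was higher (adjusted p = 0.000112) and stood well above background on 4 of 4 tumor and 0 of 3 control arrays. Both Col4a2 probes, both Col18a1 probes and both Col14a1 probes passed in regression against tumor. The other Col15a1 probe gave 1.19 ± 0.59 there (adjusted p = 0.234) and 1.84 ± 0.63 in regression against control (0.0962). That of Col6a2 gave 0.57 ± 0.61 (adjusted p = 0.68) and -0.73 ± 0.66 (0.528) in the same comparisons. For Col4a1 the other probe gave 1.52 ± 0.47 in regression against control (adjusted p = 0.0639). The Col15a1, Col6a2 and Col4a1 calls thus rest on 1 of 2 passing probes each. A second Col1a2 probe and another Col3a1 probe were each well above background on 0 of 4 regression and 1 of 4 tumor arrays, without passing the test. A second Col16a1 probe differed by -0.04 (adjusted p = 0.981).

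For 3 genes that were not called, a dimmer probe passed by itself. The other Col5a1 probe (chr2:27859381-27859440, mm9) rose in regression over tumor by 1.83 ± 0.36 (adjusted p = 0.0026), where the representing probe gave -0.27. A Col6a3 probe (chr1:92597492-92597551, mm9) rose by 2.48 ± 0.45 (adjusted p = 0.00154) and was also higher in tumor than in control (adjusted p = 0.0104, well above background on 3 of 4 tumor and 0 of 3 control arrays), where the representing probe gave -1.39 (adjusted p = 0.137). A Col27a1 probe (chr4:62820812-62820871, mm9) rose by 2.03 ± 0.28 (adjusted p = 0.000239). The same Col27a1 probe was lower in tumor than in pre-tumor (-1.30 ± 0.28, adjusted p = 0.004). Tested probe by probe, 15 collagen genes had a probe that rose in regression over tumor, through 19 of 71 passing probes, against 14.3% of all probes called in either direction. The calls for Col5a1, Col6a3 and Col27a1 thus depend on which probe stands for the gene.

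**Figure D4:**
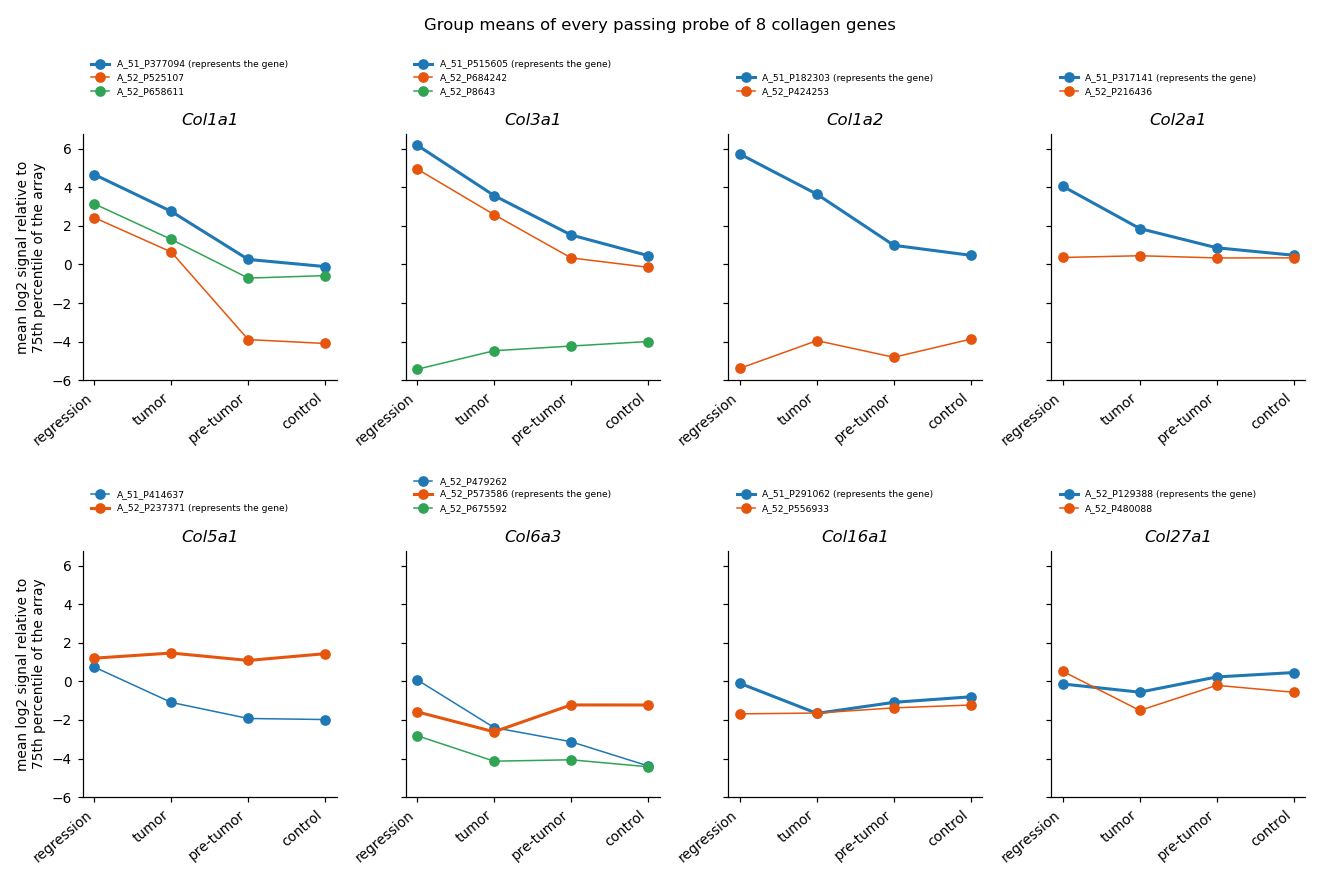
Group means (log2 signal relative to the 75th percentile of the array) of every passing probe of 8 collagen genes, with the representing probe drawn thicker. The Col1a1 probes run in parallel between regression and tumor, whereas 1 Col2a1 probe stays between 0.34 and 0.45 in all groups and the probes of Col5a1, Col6a3, Col16a1 and Col27a1 diverge.

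Pre-tumor livers, in which MYC had been on for weeks without a tumor, showed no called collagen gene against control. The count was 0 of 39 members in limma, against 0% of all genes. Among the members 1, Col3a1, had an unadjusted p under 0.05 (0.0354), while 509 of the 19355 genes did. The groups did not overlap for 2 of the 39 members, Col3a1 and Col9a3, against 2.93% of all genes. The differences ran from -0.73 to 1.07, and the median was -0.01, beside -0.03 over all genes.

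The other genes of the collagen pathway are given by role, from lists that do not include the members. Their counts stand beside 8.49% of all genes that rose in regression over tumor. Of 12 genes for collagen-binding matrix, 9 rose in regression over tumor, with a median difference of 2.15. Lumican (Lum), a proteoglycan that spaces fibrils, was at least 6.93-fold higher (adjusted p = 0.000105), with measured means of -0.13 in regression and -4.50 in tumor. Thbs2, a matricellular protein, was at least 5.08-fold higher (adjusted p = 0.000108), with means of -0.58 and -4.40. Both are bounds, since they were well above background on 0 of 4 tumor arrays. Tnxb, which bridges fibrils, was 2.37 ± 0.35 higher (adjusted p = 0.000309). Of 12 genes for propeptide processing and cross-linking, 4 rose, among them Adamts2, the protease that trims the amino end of types I and III (2.51 ± 0.55, adjusted p = 0.00476), and Loxl2, a cross-linking oxidase (1.31 ± 0.29, adjusted p = 0.00574). Of 21 genes for modification and folding, 2 rose, a share close to that of all genes. They were Plod1, a lysyl hydroxylase (1.36 ± 0.42, adjusted p = 0.0336), and P4ha2, a prolyl hydroxylase subunit (1.44 ± 0.45, adjusted p = 0.0384). None of these lists had a member that fell, and the median over all genes was -0.11. The difference between the lists was not tested.

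The basement membrane partners of type IV gave 3 of 15 genes higher in regression than in tumor. These were Lama4, a laminin chain of vessels (1.43 ± 0.31, adjusted p = 0.00447), Nid1, which ties laminin to type IV collagen (2.05 ± 0.50, adjusted p = 0.0103), and Lama2 (1.40 ± 0.44, adjusted p = 0.0379). Of 9 collagen receptors 1 rose, again close to the 8.49% of all genes, the integrin chain Itga1 (1.37 ± 0.37, adjusted p = 0.0177). Of 15 genes of TGF-beta signalling, a pathway that raises collagen transcription in stellate cells, 5 rose, led by Ccn2, a matricellular target (2.23 ± 0.38, adjusted p = 0.000808), and the receptors Tgfbr2 (1.82 ± 0.35, adjusted p = 0.00213) and Tgfbr1 (1.62 ± 0.32, adjusted p = 0.00259).

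In tumor against control, 9.35% of all genes were higher and 7% lower. There the lists of modification and folding, collagen-binding matrix and basement membrane partners held genes called in both directions. Modification and folding had 1 gene higher (Crtap, part of the prolyl 3-hydroxylation complex, 1.80 ± 0.43, adjusted p = 0.00863) and 3 lower, which included Tmem38b, an ion channel of the endoplasmic reticulum (-1.86 ± 0.42, adjusted p = 0.00581). Collagen-binding matrix had 1 higher, Sparc, which chaperones collagen in the matrix (2.34 ± 0.48, adjusted p = 0.00284), and 1 lower, fibronectin (Fn1, -1.76 ± 0.53, adjusted p = 0.0326). Basement membrane partners had 3 higher and 3 lower. The laminin chain Lamc1, not well above background on any control array, was at least 9.7-fold higher (adjusted p = 4.66e-05, means of 0.49 and -3.13), and Nid1 was higher by 3.08 ± 0.54 (adjusted p = 0.000854). For propeptide processing and cross-linking 0 of 12 passed in limma, with 4 under an unadjusted p of 0.05, and for the receptors 0 of 9, with 0 under it. TGF-beta signalling had 1 of 15 genes higher and 0 lower.

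Markers of the cells that make collagen moved with regression as well. Of 16 markers of stellate cells and fibroblasts, 9 rose in regression over tumor and 0 fell, against 8.49% and 8.21% of all genes. Pdgfrb, a receptor of these cells, was 2.67 ± 0.48 higher (adjusted p = 0.00121) and Cygb, a globin of stellate cells, 2.38 ± 0.40 (adjusted p = 0.000758). The mean log2 level of the list ranged from 0.51 to 1.51 on the regression arrays, -0.79 to 0.18 on the tumor arrays, 0.05 to 0.37 on the pre-tumor arrays and -0.49 to -0.19 on the control arrays. The stellate cell markers Lrat and Reln were each well above background on 3 of 4 regression arrays and 1 of 4 tumor arrays, and Des on all 15 arrays. The list shares Lum and Dcn with the collagen-binding matrix.

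In tumor against control, where types I and III were higher, the same 16 markers gave 2 higher (Pdgfrb by 2.44 ± 0.52, adjusted p = 0.00345, and Cygb by 2.18 ± 0.43, adjusted p = 0.002) and 2 lower (Ecm1 and Reln). Against pre-tumor, tumor had 0 of them higher and 4 lower. In the same comparison Col1a1, Col1a2, Col3a1 and Col5a2 were higher by 2.49, 2.65, 2.04 and 1.69 (adjusted p = 0.00109, 0.000627, 0.00272 and 0.00688). Of all genes, 9.35% were higher and 7% lower in tumor against control, and 9.94% higher and 9.21% lower against pre-tumor. The median of the 16 markers was -0.32 in tumor against pre-tumor, beside -0.13 over all genes. Whether the number or state of stellate cells and fibroblasts had a part in the collagen differences was not tested.

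Markers of other cells differed between tumor and the tumor-free livers too. Their counts stand beside 9.35% of all genes higher and 7% lower against control, and 9.94% and 9.21% against pre-tumor. Of 10 hepatocyte markers, 8 were lower and 0 higher in tumor, against control and against pre-tumor alike. Their mean log2 level was 3.08 to 4.41 on the tumor arrays, 5.87 to 7.65 on the pre-tumor arrays and 6.32 to 6.90 on the control arrays. Of 9 macrophage markers, 3 were higher and 2 lower against control, and 4 higher and 2 lower against pre-tumor. Of 12 endothelial markers, 0 were higher and 2 lower against control, and 0 higher and 6 lower against pre-tumor. Bile duct markers gave 1 of 8 lower in both comparisons, and mesothelium 0 of 3 in limma, with 0 under an unadjusted p of 0.05. The part of these cells in the collagen differences was not tested.

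The same lists also differed between regression and tumor, where 8.49% of all genes rose and 8.21% fell. Of 12 endothelial markers 8 rose, with a mean log2 level from -0.23 to 0.36 on the regression arrays and from -1.48 to -1.18 on the tumor arrays. Of 9 macrophage markers 7 rose (2.95 to 3.74 on the regression arrays and 1.45 to 1.95 on the tumor arrays). Of 10 hepatocyte markers 5 rose (4.33 to 5.79 and 3.08 to 4.41 on the same arrays). Bile duct markers gave 1 of 8, and mesothelium 0 of 3 in limma, with 0 under an unadjusted p of 0.05. Mesothelial Upk1b did not pass the filter. None of the 6 lists had a member that fell. The part of these cells in the collagen differences was not tested.

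**Figure D5:**
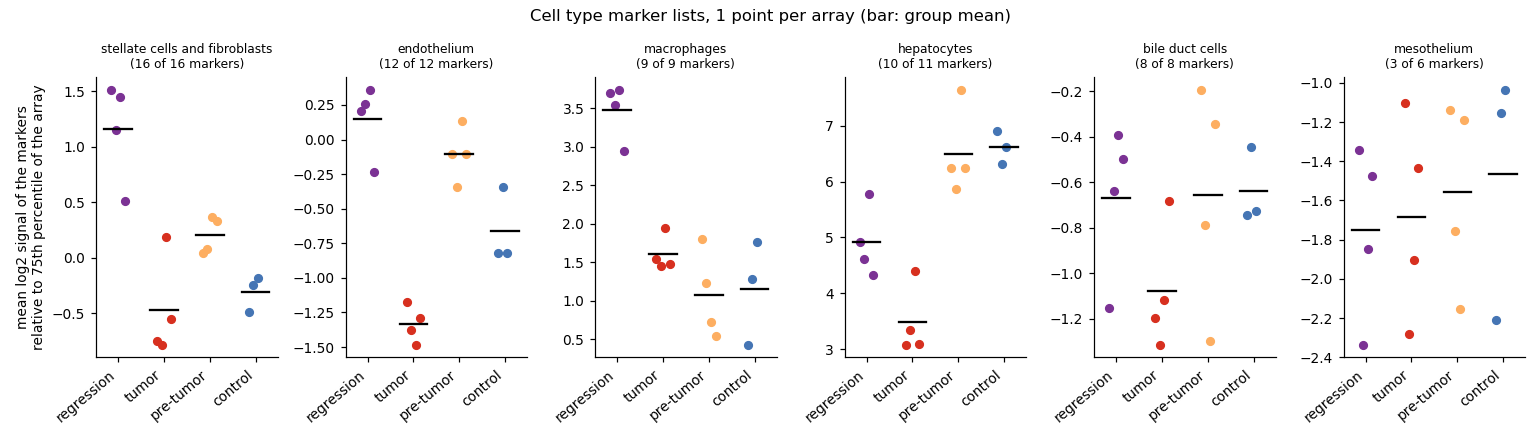
Mean log2 level of each marker list on each array (1 point per array, bar for the group mean), relative to the 75th percentile of the array, with the number of markers measured in the title of each panel. The stellate cell and fibroblast, endothelial and macrophage lists lie higher on every regression array than on every tumor array.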

How the data were processed

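The study profiled 15 liver or liver tumor samples of mice on 1-colour Agilent 4x44K arrays, with 4 regression, 4 tumor, 4 pre-tumor and 3 control arrays grouped by their labels. Per the file headers, the processed Cy3 intensity comes from Agilent Feature Extraction 10.5.1.1, after background subtraction and correction of spatial trends. The authors also deposited a table of normalized log2 intensities, whose method is not given in the sources used here; it supplied the gene symbols and served as an alternative.

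From the processed intensity, log2 values were taken and the 75th percentile of each array was subtracted. Spots flagged by that program as uneven, or as outliers among their replicates, were dropped (0.452% of values), and 0 were saturated. A probe passed when well above background on 3 arrays or more, and a gene is read by its brightest passing probe (highest mean over all arrays). Symbols were updated through RefSeq for 4456 of 21538. All 15 arrays entered 1 limma model (limma 3.58.1, R 4.3.3) with 4 group means, 11 residual degrees of freedom and 5 comparisons. Tests were two-sided, and p-values were adjusted by Benjamini-Hochberg over 19355 genes, with a call under 0.05. A gene well above background on no array of 1 group is given as a bound, or with no fold where the bound is under 1. Such a bound compares group means and takes no account of the spread between arrays. Figures were drawn with matplotlib 3.10.9. The procedure was tested on simulated data.

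The members, classes and lists were chosen with earlier results of these data known. Values on every array are given for the 13 members called in any comparison. Their chain partners, which bring the number to 20 genes, are given by levels, ranges or differences. Members of the pathway lists were picked for naming by smallest adjusted p, with higher genes given before lower ones. The named stellate cell and fibroblast markers do not follow this order. Lum, also in that list, had a smaller adjusted p in regression against tumor than Pdgfrb and Cygb. Alternatives were the authors' table, median centring, quantile normalization, normexp (offset 50) followed by quantile normalization, 2 other filters, the mean of a gene's probes, slide or replicate number as a block, trended robust variance, only the 2 groups compared, each array left out, and, chosen after seeing the data, each probe tested by itself. Normexp used the median spot signal in place of the planned mean signal. Same-numbered arrays deviated with correlations between -0.339 and 0.607, so the replicate number was not taken as a pairing. Probe coordinates are those of the array design (mm9), and promoter coordinates are GRCm38.p6.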

Additional observations from a re-analysis of the deposited data

Results flagged for a closer look

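The 13 called collagen genes and their chain partners, 20 in all, gave 60 groups of 4 arrays. These were examined for a single array whose gap to the others, relative to the range of the group, exceeded Dixon's 95% critical value of 0.829. There were 4 such arrays, where chance gives about 1 in 20 groups. Col1a1 on regression 4 read 3.0178, below the other regression arrays (5.01 to 5.38). Col2a1 on tumor 3 read 1.2031, below the other tumor arrays (2.03 to 2.11). Col4a6 on regression 3 read 0.032, above the other regression arrays (-0.86 to -0.78). Col6a1 on pre-tumor 2 read -2.1018, above the other pre-tumor arrays (-3.18 to -3.04).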

How the results depend on the processing

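Over 630 combinations of a called collagen gene and an alternative, 575 kept their call, 55 lost it and 0 changed sign. Pre-tumor against control gave 0 collagen genes under every alternative. Tumor against control gave 5 in the main analysis, all higher, and 9 in the authors' table (8 higher and 1 lower). The count was 8 where every array of at least 1 group had to be well above background (7 higher and 1 lower). It was also 8 with a trended robust variance (7 higher and 1 lower). It was 4 with the slide as a block, all higher, and 4 with the probes averaged (3 higher and 1 lower). With the slide as a block tumor against pre-tumor gave 5 (6 in the main analysis), regression against tumor 9 (12) and regression against control 10 (11). With the replicate number as a block the count was 12 for tumor against control (9 higher and 3 lower). For tumor against pre-tumor it was 10 (9 higher and 1 lower), where the count without the block was 6. For regression against tumor it was 12, all higher, and for regression against control 13 (11 higher and 2 lower). Leaving out each array in turn gave 0 to 0 calls for pre-tumor against control, 4 to 8 for tumor against control, 5 to 10 for tumor against pre-tumor, 9 to 13 for regression against tumor and 9 to 12 for regression against control. The highest tumor counts, 8 (6 higher and 2 lower) and 10 (7 higher and 3 lower), came without tumor 4.

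Calls lost when an array was left out were those of Col2a1 in tumor against control (adjusted p up to 0.145), Col4a2, Col6a2 and Col15a1 in regression against tumor (up to 0.0909, 0.0678 and 0.0718), Col15a1 (0.117) and Col4a1 (0.0588) in regression against control, and Col4a2 in tumor against pre-tumor (0.0848). Averaging the probes of a gene ended all 4 Col1a2 calls (adjusted p from 0.0684 to 0.819), the construction that brings in its dim second probe, the regression against tumor calls of Col2a1 (0.0958), Col16a1 (0.152) and Col6a2 (0.068), that of Col2a1 in tumor against control (0.287) and that of Col6a2 in regression against control (0.0878). The slide as a block ended those of Col2a1 in tumor against control (0.101), Col4a2 in tumor against pre-tumor (0.0655), Col15a1 (0.0563), Col4a2 (0.0769) and Col6a2 (0.0515) in regression against tumor, and Col15a1 in regression against control (0.119). Fitting only the 2 groups ended that of Col4a2 in tumor against pre-tumor (0.0506). Normexp with quantile normalization ended the tumor calls of Col5a2 against control (0.209) and pre-tumor (0.172) and of Col2a1 against control (0.102); the cause was not tested. With median centring the median of all genes in tumor against control was 0.12, against -0.18 in the main analysis, and no called gene changed direction, while the calls of Col18a1 in tumor against pre-tumor (0.131) and of Col15a1 (0.0551), Col4a2 (0.0977) and Col6a2 (0.0648) in regression against tumor were lost.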
